A study of Sus scrofa with 12 samples.

Results

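The hypoxia m6A list describes where N6-methyladenosine (m6A), the methylated form of adenosine in RNA, was called in primary porcine granulosa cells after 12 h at 1% O2. It comes from methylated RNA immunoprecipitation sequencing (MeRIP-seq), in which fragmented poly(A) RNA is enriched with an m6A antibody (the IP library) and compared with an aliquot that was not enriched (the input library). All 24444 regions of the list were taken, of 49790 in the hypoxia and normoxia lists together. They lie in 11047 genes, of which 10823 are among the 18060 genes with measured input RNA; the other 224 genes hold 315 of the peaks. The comparison with normoxia picked out 3912 hypoxia peaks that share no base on the same strand with a normoxia peak, called hypoxia-only peaks below.

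The donors of the granulosa cells were mature sows with antral follicles, a cross of the Duroc, Yorkshire and Landrace breeds, and the cells were grown in serum-containing DMEM/F-12 medium. The hypoxia group was held in 1% O2, 5% CO2 and 94% N2, and the normoxia group in 21% O2, 5% CO2 and 74% N2, each for 12 h and each with 3 biological replicates that gave 1 input and 1 IP library. No allele or agent other than the gas mixture separates the groups, and the sample labels used here give no batch for the libraries. The sources used here do not say whether each replicate had a sow of its own, so p-values measure the spread between these cultures only.

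In mammalian cells m6A is laid down on nascent mRNA by a methyltransferase complex built around METTL3 and METTL14, removed by the demethylases FTO and ALKBH5, and bound by reader proteins such as the YTH family. It is known to gather around stop codons and in 3′ UTRs and long internal exons, and it bears on splicing, translation and mRNA decay. Granulosa cells surround the oocyte in the follicle, produce steroids and inhibins, and work in a tissue with a low oxygen supply.

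Each library summed to between 294929 and 326804 FPKM (fragments per kilobase, a level scaled for transcript length and library size), and 8886 to 10212 genes reached 1 FPKM, the fewest in hypoxia replicate 3. Read depth is unknown, because neither the FPKM table nor the peak list holds read counts. Of 15 granulosa markers, 10 had a mean of at least 1 FPKM in hypoxia, and 9 of these carried a hypoxia peak. The 15 summed to 130 to 167 FPKM per library in hypoxia and 147 to 152 in normoxia. Of 6 leukocyte markers 5 had measured input RNA, and 2 reached 1 FPKM in hypoxia, the highest at 2.12 FPKM. Of 4 oocyte markers only 1 had measured input RNA. That marker stood at 1.02 FPKM in hypoxia and carried 5 peaks, and the level of the others is unknown. Of 5 theca markers 4 had measured input RNA, and none reached 1 FPKM in hypoxia (STAR was listed at 0 in 2 of the 3 hypoxia libraries). Of 8 endothelial markers 7 had measured input RNA, and PECAM1 alone reached 1 FPKM, at 2.81 FPKM. All 10 markers of fibroblasts and smooth muscle reached 1 FPKM in both conditions, with a summed level of 6344 to 7544 FPKM per library in hypoxia and 9740 to 11583 in normoxia. Their part in the results was not tested, and in bulk cultures fewer cells of a type and less RNA per cell cannot be told apart.

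The largest class of the hypoxia list was the 3′ UTR. The authors annotated 10688 peaks (43.7%) to 3′ UTRs, 8755 (35.8%) as exonic, 3897 (15.9%) to 5′ UTRs and 1093 (4.47%) to exons of non-coding RNAs. The other 8 were intronic and 3 had no class. The centre of a 3′ UTR peak lay, at the median, 95.3% of the way along its gene, that of an exonic peak 65.8% and that of a 5′ UTR peak 7.48%, with introns counted in the gene's length. The annotated gene end bounded many peaks: 19.9% of 3′ UTR peaks finished at the last base of the gene, 55.5% of 5′ UTR peaks began at its first base, and 180 peaks covered a whole gene. The class is the authors' and is assigned once per peak, so a span that runs from a 5′ UTR into coding exons has 1 label.

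**Figure D1:**
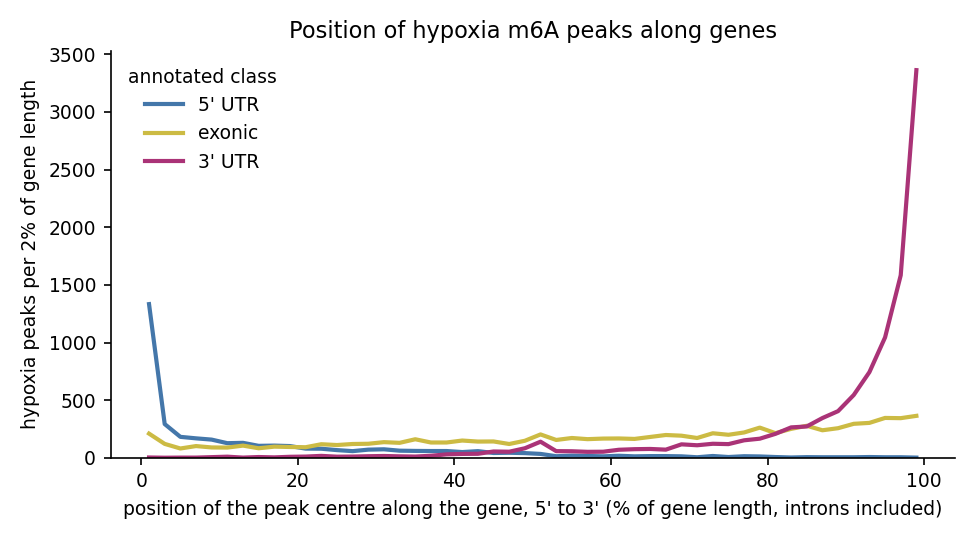
Number of hypoxia peaks (y axis) by the position of the peak centre along the gene in percent of gene length from 5′ to 3′ (x axis, 50 bins), for the 3 most frequent annotated classes. The last bin holds 3362 peaks of 3′ UTRs and the first bin 1333 peaks of 5′ UTRs, while exonic peaks are spread over the whole gene.

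Enrichment of IP over input, as the authors list it, had a median of 4.81-fold over the hypoxia list and ran from 1.12 to 965-fold. Its median was 5.04-fold in 3′ UTRs, 4.27-fold in exonic regions, 5.15-fold in 5′ UTRs and 7.22-fold in non-coding RNA exons. The interquartile range over all peaks was 2.99 to 7.51-fold. These are 1 value per peak for the 3 hypoxia replicates as a group, and they carry no error of their own. Peaks on non-coding RNA also lay in genes of low RNA, with a median of 0.288 FPKM against 3.61 FPKM for 3′ UTR peaks, and 44.9% of them sat at 1 of the 10 most repeated enrichment values of the list, against 21.2% of 3′ UTR peaks. The authors' adjusted p was under 0.05 for 86.8% of the listed peaks (21215), for 87.6% of 3′ UTR peaks and for 70.0% of non-coding RNA peaks.

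The peaks of highest enrichment were taken per class at an adjusted p under 0.05 in genes of at least 10 FPKM. In 3′ UTRs the highest was in ORMDL3, which codes for a regulator of sphingolipid synthesis, at 965-fold over 629 bases (chromosome 12, 22416719 to 22417347). CADM4, a cell adhesion molecule, followed at 319-fold over 666 bases, and PDIA3, a protein disulfide isomerase of the endoplasmic reticulum, at 217-fold over 5842 bases. Among exonic peaks CENPB, which codes for a centromere protein, had 230-fold over 1761 bases (chromosome 17, 31929952 to 31931712), the RNA helicase gene DHX9 165-fold over 658 bases and the cytoskeletal gene ADD1 85.6-fold over 43562 bases. These 6 peaks each overlapped a normoxia peak.

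In 5′ UTRs the highest enrichments were 311-fold in SYNCRIP, which codes for an RNA-binding protein (989 bases), 223-fold in the chromatin gene MORF4L1 (20370 bases) and 135-fold in INHA. INHA codes for the inhibin alpha subunit, a hormone of granulosa cells, and its peak covered 3496 bases of chromosome 15, 121581702 to 121585197. INHA RNA was 9.72, 7.24 and 14.5 FPKM in the hypoxia libraries and 8.20, 11.5 and 11.4 in normoxia. The 2 sets of libraries overlapped, and limma gave no call (log2 fold change -0.02 ± 0.26 SE, adjusted p = 0.972). In the non-coding class the rule returned NOD1, an innate immune receptor, with 2 peaks, at 13.4 and 7.97-fold, and FAT1, a protocadherin-like cell surface protein, at 7.41-fold. Both are protein-coding genes by their usual annotation, so the class label of these peaks is given here only as the authors' list has it.

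The median hypoxia peak covered 449 bases, and the shortest, at 58 bases each, lay in the 3′ UTRs of the ribosomal protein genes RPL27 and RPS26, followed by 59 bases in EFCAB2. A span includes any intron between its first and last base, and 2048 peaks (8.38%) ran over more than 10000 bases. The longest was a single exonic region of 1372067 bases in DLG2, a synaptic scaffold gene that stood at 0.109 ± 0.0465 FPKM (SD, n = 3), with an adjusted p of 0.122. RBMS3, an RNA-binding protein gene, held 741376 bases (adjusted p 0.0603) and the protocadherin gene PCDH9 619895 bases (adjusted p 0.36). All 3 spans sat at a repeated enrichment value, and none reached an adjusted p under 0.05. Among the 142 peaks of over 100000 bases 73.9% passed that threshold, and 45.1% were annotated to 5′ UTRs, against 12.6% of the peaks between 200 and 500 bases.

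Most genes with m6A in hypoxia had more than 1 peak. A single peak was listed in 4578 genes (41.4%), 2 in 3078 (27.9%), 3 in 1693, 4 in 849, 5 in 427 and 6 or more in 422. Genes with 6 or more peaks, 3.82% of the genes, held 12.7% of the peaks. Gene length rose along this series, from a median of 18.8 kb for 1 peak to 69.2 kb for 6 or more, while the median input RNA went from 3.37 to 2.12 FPKM. The most frequent arrangement was peaks in the 3′ UTR alone, in 3419 genes (30.9%). Peaks in both the 3′ UTR and exons were found in 1872 genes, in exons alone in 1722, in both UTRs in 1184, in both UTRs and exons in 911 and in the 5′ UTR alone in 807.

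By number of peaks PCDHGA4 came first. It had 22 peaks, 13 of them exonic and 6 intronic; it lies in the clustered protocadherin gamma locus, whose variable first exons share their downstream exons, so peaks of neighbouring family members may be listed under its name. FAT4, a giant atypical cadherin, had 18 peaks with a median of 3.61-fold, and SYNE2, which codes for a nuclear envelope protein that ties the nucleus to actin, had 17 with a median of 6.19-fold. AKAP9 (a centrosomal and Golgi scaffold) and ZFHX3 (a zinc finger homeobox factor) had 16 each, and FAT1 and BPTF (a chromatin remodelling subunit) had 14 each. In AKAP9 every peak was exonic, and in FAT4, SYNE2 and ZFHX3 all but 1, that 1 lying in the 3′ UTR. Their RNA was low to moderate, from 0.416 ± 0.159 FPKM for ZFHX3 to 13.5 ± 5.57 FPKM for FAT1 (SD, n = 3 hypoxia libraries). The normoxia list gave these genes 17 peaks in ZFHX3, 15 in AKAP9, 14 each in PCDHGA4 and SYNE2, 13 in FAT4, 10 in FAT1 and 6 in BPTF.

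Beside the input RNA of the 3 hypoxia libraries, the share of genes with a hypoxia peak rose with RNA level and then fell. It was 11.4% of genes at 0 to 0.1 FPKM, 68.0% at 0.1 to 1, 80.8% at 1 to 5, 81.6% at 5 to 20, 76.2% at 20 to 100 and 69.8% over 100 FPKM. Of the 9846 genes with a mean of at least 1 FPKM, 7867 carried a peak, a background of 79.9% against which the lists further on are read. Genes with a peak had a median of 3.18 FPKM and those without one a median of 0.0518. Median enrichment fell along the same bins, from 8.25-fold in the lowest to 2.91-fold in the highest. The share of peaks at an adjusted p under 0.05 went the other way, from 51.0% to 94.6% (96.3% at 20 to 100 FPKM), and 69.0% of peaks in the lowest bin sat at a repeated enrichment value against 9.19% in the highest. A fold is read here beside the RNA level of its gene, and the depth that would set its error is not known.

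The class of the peaks also shifted with RNA level. From the 0.1 to 1 FPKM bin to the bin over 100 FPKM, the exonic share went down at each step, from 44.9% to 21.3%, and the 5′ UTR share went up at each step, from 11.8% to 29.4%. The 3′ UTR share rose from 35.6% to about the same value in the 3 highest bins, 49.3 to 49.9%. The lowest bin stands apart, with 31.1% of its peaks in non-coding RNA exons.

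**Figure D2:**
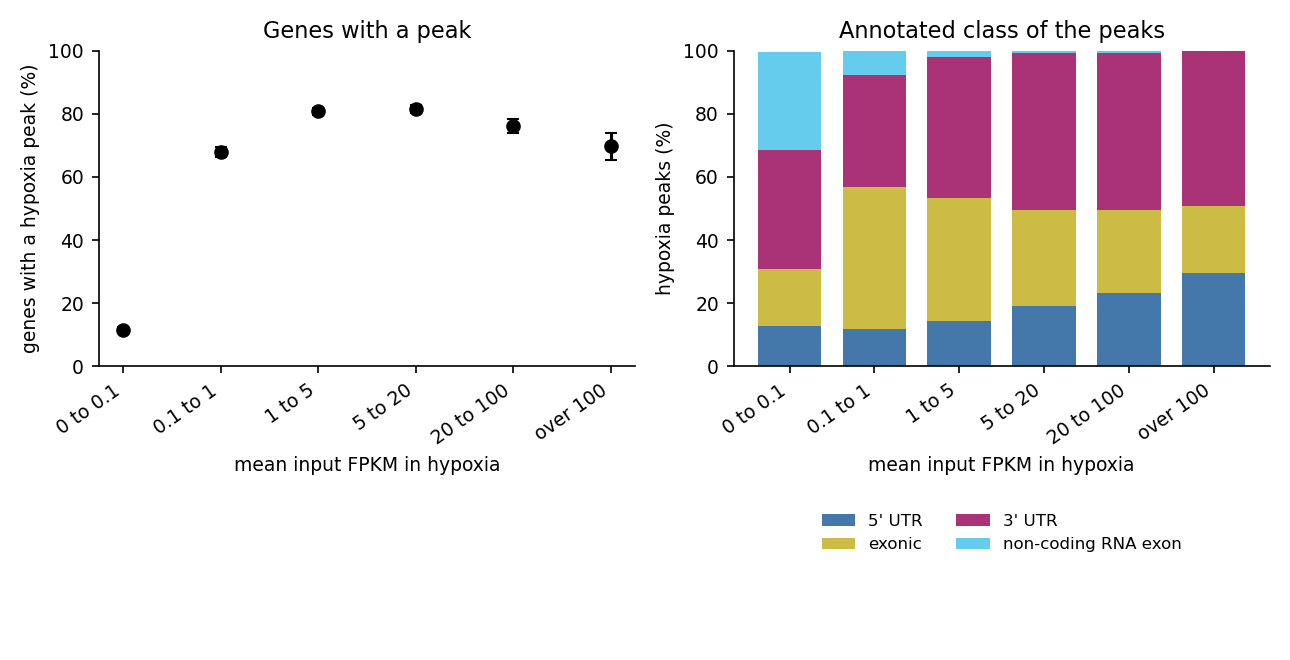
Left, the percentage of genes with at least 1 hypoxia peak (points, with 95% Wilson intervals over genes, which are not replicates) by mean input FPKM of the 3 hypoxia libraries (x axis, 6 bins). Right, the percentage of hypoxia peaks in each annotated class in the same bins, where the 5′ UTR share reaches 29.4% and the exonic share drops to 21.3% in the bin over 100 FPKM.

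Among the most abundant mRNAs some had 1 peak and others none. Of the 8 most abundant genes with a peak 7 are described here, and each had exactly 1: TMSB10 and TMSB4X (actin-binding thymosins), THBS1 (thrombospondin), ACTA2 (smooth muscle actin), EEF1A1 (translation elongation), TIMP1 (a metalloproteinase inhibitor) and GPX3 (a secreted peroxidase). TMSB10 stood at 9338, 7835 and 5721 FPKM in the hypoxia libraries with a 3′ UTR peak of 3.36-fold. ACTA2 stood at 4101, 3455 and 2876 FPKM with an exonic peak of 1.60-fold. The peaks of TMSB10, TMSB4X, THBS1 and TIMP1 lay in the 3′ UTR.

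The 8 most abundant genes without a hypoxia peak were GAPDH (glycolysis), ACTG1 (cytoplasmic actin), TAGLN (a smooth muscle actin-binding protein), LGALS1 (a galectin), FTL (ferritin light chain), RPS2 and RPLP1 (ribosomal proteins) and VIM (vimentin). GAPDH stood at 13675, 9937 and 17335 FPKM in the hypoxia libraries, above every gene of the table in mean level, and had no peak in either list. TAGLN and VIM had 1 and 2 peaks in the normoxia list, the others none. Input RNA was high for each of these genes, and the IP depth at each is unknown.

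Gene lists with a known role in this tissue or in oxygen sensing were then set against the background of 79.9%. They are described by counts over genes with at least 1 FPKM in hypoxia, without a test. All 28 genes of SMAD, TGF-β, activin and BMP signalling carried a hypoxia peak, as did all 33 immediate early and stress transcription factors, 129 of 132 zinc finger genes named ZNF (97.7%), 22 of 23 collagen and matrix genes (95.7%) and 11 of 12 granulosa identity and hormone genes (91.7%). The low end held 33 of 69 subunits of respiratory complexes I to V (47.8%), 35 of 66 cytosolic ribosomal proteins (53.0%), 8 of 14 steroidogenesis genes (57.1%), 20 of 34 proteasome subunits (58.8%), 14 of 21 tricarboxylic acid cycle genes (66.7%) and 15 of 22 glycolysis and glucose uptake genes (68.2%). Mitochondrial ribosomal proteins (50 of 62, 80.6%) and solute carriers (116 of 143, 81.1%) lay near the background. The background of 79.9% is not matched for RNA level, and the share was 76.2% at 20 to 100 FPKM and 69.8% over 100. Median RNA was 155 FPKM in the glycolysis list, 371 in cytosolic ribosomal proteins and 32.0 in complex subunits. The glycolysis share of 68.2% was thus near that of all genes over 100 FPKM.

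**Figure D3:**
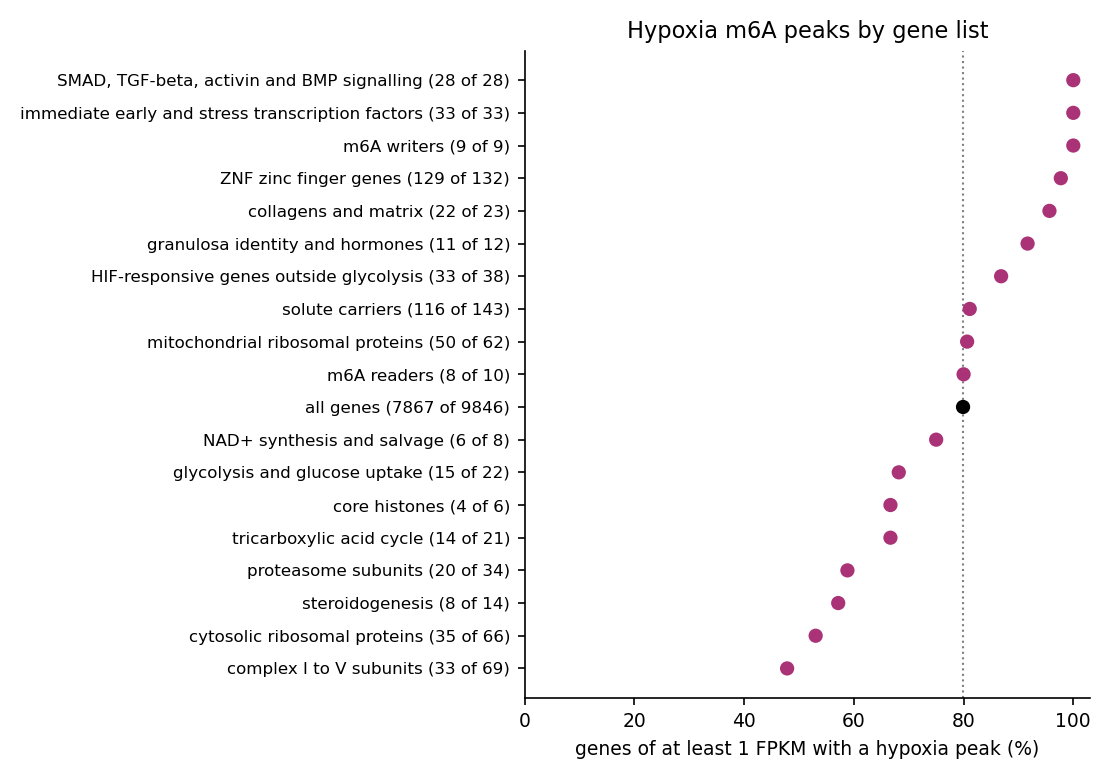
Percentage of genes with a mean of at least 1 FPKM in hypoxia that carry a hypoxia peak (x axis), for each gene list with at least 5 such genes (y axis, with the counts). The dotted line and black point mark all genes at 79.9%, and the lists run from 47.8% for respiratory complex subunits to 100% for signalling, transcription factor and m6A writer genes.

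Among the signalling genes TGFB1, the TGF-β1 ligand, had a 3′ UTR peak of 21.4-fold and a 5′ UTR peak of 5.74-fold, FSTL3 (a secreted activin antagonist) had 2 peaks in the 3′ UTR at 5.87 and 2.27-fold, and INHBA, which codes for the subunit shared by activin A and inhibin A, had 1 at 41.9-fold. INHBB, the subunit of activin B, had 3 peaks at 9.91, 3.52 and 9.64-fold. Of the immediate early and stress factors, ID3 and ID1, inhibitors of helix-loop-helix factors, each had 1 peak in the 3′ UTR (2.75 and 2.52-fold), ATF4, the integrated stress response factor, had 2 (3.34 and 5.67-fold) and the AP-1 subunit FOSL2 had 3 (5.87, 1.69 and 2.36-fold). In these lists 65.0% (immediate early and stress factors) and 55.0% (signalling) of the peaks were in 3′ UTRs, against 47.1% over all genes of at least 1 FPKM. The ZNF genes had 191 of their 378 peaks (129 genes) in regions annotated as exonic and 38.1% in 3′ UTRs.

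Granulosa identity genes were covered with the exception of KITLG, the ligand of the oocyte receptor KIT, which stood at 1.00, 2.58 and 0.364 FPKM in hypoxia and had 2 peaks in normoxia and 0 in hypoxia. GATA6, a transcription factor of the follicle, had 3 peaks of 2.50, 6.11 and 3.88-fold. FST, which codes for the activin-binding protein follistatin, had 2, of 1.30 and 3.87-fold, both hypoxia-only. Its RNA was 22.2, 28.0 and 15.0 FPKM in hypoxia and 13.4, 13.7 and 15.7 in normoxia, with overlapping groups and an adjusted p of 0.135 in limma. INHBB RNA was 29.4, 32.9 and 32.1 FPKM in hypoxia and 14.9, 17.2 and 17.2 in normoxia. The groups did not overlap and INHBB rose (log2 fold change 0.90 ± 0.14 SE, limma adjusted p = 0.00429), and none of its 3 hypoxia peaks was hypoxia-only.

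In the steroidogenesis list the 3 most abundant genes had no peak. CYP11A1, the cholesterol side-chain cleavage enzyme that starts steroid synthesis, stood at 85.2, 68.4 and 232 FPKM in hypoxia with no peak in either list, and NPC2 (181 FPKM), TSPO (90.5 FPKM) and POR (5.50 FPKM), which serve cholesterol transport and electron supply, had none either. Peaks were listed for the lipoprotein receptor SCARB1 (2.71-fold), for the cholesterol transporter STARD3 (3.57-fold) and for HSD17B4 (2.68-fold), a peroxisomal enzyme. Each of these 3 had less RNA than CYP11A1, at 4.72 to 11.1 FPKM.

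Glycolysis genes rose in hypoxia, and 15 of 22 carried a peak. Of 23 tested, 22 rose and 0 fell at a limma adjusted p under 0.05, beside a background of 5.4% higher and 21.1% lower over all genes tested. The median log2 fold change was 2.09, against -0.26 over all genes tested. GAPDH, ENO1, ALDOA and TPI1, the 4 most abundant of the list, had no hypoxia peak. ENO1 stood at 1667, 1306 and 2196 FPKM and ALDOA at 1389, 1084 and 2183. Peaks were listed in the lactate dehydrogenase gene LDHA (3′ UTR, 3.73-fold), in PKM (3′ UTR, 3.22-fold), in PGK1 (5′ UTR, 1.80-fold) and in PGAM1 (2.91 and 1.72-fold). LDHA RNA was 1303, 1238 and 719 FPKM in hypoxia and 169, 155 and 129 in normoxia, without overlap, and rose by 2.80 ± 0.25 on the log2 scale (limma adjusted p = 0.000738), with 1 peak in each list.

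Of the HIF-responsive genes outside glycolysis 33 of 38 (86.8%) had at least 1 peak, and 43 of their 66 peaks (65.2%) lay in 3′ UTRs. Of 38 tested, 25 rose and 1 fell, beside the same background of 5.4% higher and 21.1% lower. BNIP3, a mitophagy receptor, stood at 944, 801 and 952 FPKM in hypoxia and 31.8, 39.9 and 35.7 in normoxia, with a 3′ UTR peak of 5.07-fold. DDIT4, an inhibitor of mTOR, had a 3′ UTR peak of 6.01-fold and 361 ± 99.2 FPKM (SD, n = 3), and LOXL2, a collagen cross-linking oxidase, had 4 peaks of 1.39 to 3.66-fold. MIF (a cytokine, 362 FPKM) and BNIP3L (a mitophagy receptor, 50.1 FPKM) had none in either list. Outside the naming rule, and chosen after their values were seen, VEGFA (angiogenic growth factor) had a 5′ UTR peak of 17.9-fold and a 3′ UTR peak of 6.59-fold, HK2 (hexokinase) had 5 peaks of which 2 in the 3′ UTR were hypoxia-only (1.43 and 2.03-fold), and the glycoprotein hormone gene STC2 had 6, 5 of them in the 3′ UTR.

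Among genes of the m6A machinery with at least 1 FPKM, all 9 writers and 8 of 10 readers (80.0%) had hypoxia peaks, beside 79.9% of all genes of that level. The writers had 23 peaks, 16 of them exonic. RBM15B (an adaptor of the complex) had 1 of 12.4-fold and VIRMA (a scaffold of the complex) 5 of up to 7.67-fold. WTAP (a targeting subunit) had 3 of up to 9.28-fold and ZC3H13 (a further subunit) 5 of up to 42.5-fold. The folds of 12.4 and 9.28 are repeated enrichment values of the list. The readers without a peak were FMR1 and YTHDC2. None of the 9 writers changed in input RNA by limma (adjusted p from 0.089 to 0.966). Of the 10 readers 1 rose, IGF2BP2, and 1 fell, ELAVL1, the latter not past the threshold with a median-ratio factor per library. The background for both lists was 5.4% higher and 21.1% lower over all genes tested.

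The 2 erasers differed in their peaks. FTO had 1 exonic hypoxia peak of 5.04-fold over 136953 bases of chromosome 6, which overlapped its normoxia peak. Its RNA was 12.3, 11.9 and 15.2 FPKM in hypoxia and 18.0, 18.9 and 20.2 in normoxia. The groups did not overlap, and FTO fell by 0.51 on the log2 scale (SE 0.15, limma adjusted p = 0.0457), a call that was lost with a median-ratio factor per library (-0.21), with no filter on low values (adjusted p = 0.0588) and when any library other than hypoxia replicate 3 was left out. ALKBH5 had 4 hypoxia peaks of 1.80, 1.54, 9.28 and 4.33-fold against 1 in normoxia, and 3 of the 4 were hypoxia-only. The 9.28-fold peak sat at a repeated enrichment value. ALKBH5 RNA was 16.0, 16.2 and 18.0 FPKM in hypoxia and 9.43, 10.9 and 10.1 in normoxia, and it rose by 0.67 ± 0.14 on the log2 scale (limma adjusted p = 0.0125).

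Between the lists, 20532 hypoxia peaks (84.0%) overlapped a normoxia peak and 18389 normoxia peaks (72.6%) overlapped a hypoxia peak. Without overlap were 3912 hypoxia peaks (16.0%) and 6957 normoxia peaks (27.4%). Hypoxia peaks were shorter: in 13334 pairs that overlapped only each other the median span was 538 bases in hypoxia and 749 in normoxia. The hypoxia peak was the shorter in 8088 and the longer in 3835, and in 1083 both had the same start and end. The remaining pairs had equal spans at shifted positions. The median enrichments of the 13334 pairs were 4.59 and 4.33-fold, and 12542 pairs had the same annotated class. In addition, 2956 normoxia peaks each overlapped 2 or more hypoxia peaks, 6400 hypoxia peaks in all. The reverse, a hypoxia peak that overlapped 2 or more normoxia peaks, was found for 1493. With 1 list per condition and no value per replicate, the difference between lists cannot be tested, and depth, which sets how many regions are called and where they break, is unknown for both. The count of 3912 was 6322 if at least 50% of the hypoxia span had to be shared. It was 2190 if hypoxia peaks alone needed an adjusted p under 0.05, and 2837 if peaks of both lists did.

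The hypoxia-only peaks were short regions of the list. Their median span was 241 bases against 480 for the hypoxia peaks that overlapped, 56.0% of them had an adjusted p under 0.05 against 92.7%, and 46.1% sat at a repeated enrichment value against 17.6%. The medians of enrichment were 4.54 and 4.83-fold. By class 40.2% were in 3′ UTRs, 31.6% exonic, 20.9% in 5′ UTRs and 7.36% on non-coding RNA exons, so that 14.7% of all 3′ UTR peaks, 14.1% of exonic, 20.9% of 5′ UTR and 26.3% of non-coding RNA peaks were hypoxia-only. The share fell with RNA level, from 37.0% of peaks at 0 to 0.1 FPKM to 10.1% at 20 to 100 FPKM and 11.1% above. Of peaks of at most 100 bases 33.4% were hypoxia-only, of those of 500 to 1000 bases 10.1%.

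**Figure D4:**
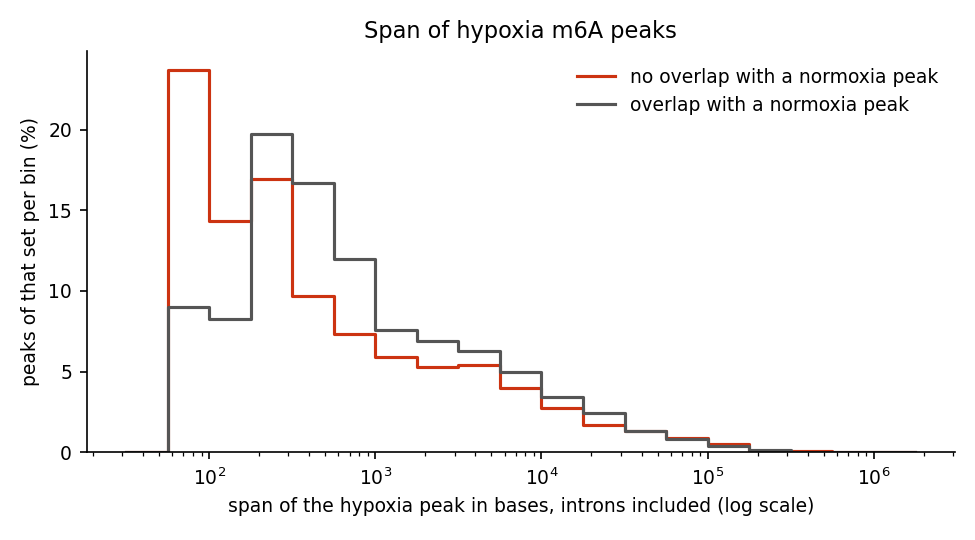
Share of peaks per bin (y axis, %) by span in bases on a log scale (x axis, introns included), for the 3912 hypoxia peaks without and the 20532 with a same-strand overlap with a normoxia peak. Spans under 100 bases are more frequent among the peaks without overlap, whose median is 241 bases against 480.

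The hypoxia-only peaks lay in 3106 genes, 2491 of them with 1 such peak, 480 with 2, 96 with 3 and 39 with 4 or more. Most of these genes carried other peaks: 2245 had a normoxia peak elsewhere and 2008 also held an overlapping hypoxia peak. Of genes with at least 1 FPKM, 18.4% (1809 of 9846) had a hypoxia-only peak. A total of 880 genes had a hypoxia peak and no normoxia peak under the same gene, against 1435 with the reverse and 10167 in both lists. RNA of the 880 was low, with 549 of the 815 in the expression table under 1 FPKM in hypoxia and 598 under 1 FPKM in normoxia. Over all 18060 genes 8214 were under 1 FPKM in hypoxia and 8035 in normoxia. For 64 of the 815 the mean passed from under 1 FPKM in normoxia to at least 1 FPKM in hypoxia, beside 406 of all 18060 genes.

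Input RNA of the genes with a hypoxia-only peak was compared between the conditions with limma on log2(FPKM + 1). Of 1866 tested, 163 (8.74%) rose and 331 (17.7%) fell at an adjusted p under 0.05, beside a background of 5.4% higher (551 of 10196) and 21.1% lower (2148) over all genes tested. Their median log2 fold change was -0.19 against -0.26 over all genes. The 3 hypoxia and 3 normoxia values did not overlap in 843 of them (45.2%), beside 44.1% of all genes tested. In the authors' deposited comparison 424 genes with a hypoxia-only peak (14.0%) were higher and 184 (6.08%) lower at a q under 0.05, beside 6.84% and 6.88% of all genes. Of the 258 tested genes with peaks only in hypoxia, 58 (22.5%) rose and 36 (14.0%) fell. These shares are descriptions: the input libraries enter both the RNA level and the peak calls, genes passed the filter on low values through whichever condition was high, and no test of the set was made. Scaling of the libraries by a median-ratio factor moved the median over all genes from -0.26 to -0.02, and the calls of the hypoxia-only genes to 195 higher and 120 lower, which is 61.9% higher among calls against 33.0% with FPKM as deposited (45.1% against 20.4% for all genes). Without hypoxia replicate 1 the same genes gave 51 higher and 132 lower, and without hypoxia replicate 3, which had the fewest genes over 1 FPKM, 208 and 480.

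Of the 10 hypoxia-only peaks of lowest adjusted p in genes of at least 1 FPKM, 1 per gene, 9 are described here, in P4HB, C4orf3, SLC2A1, TMEM74B, PLOD1, ANXA1, CABP1, CDA and APLN. Of these 9 genes 8 rose in input RNA and ANXA1 did not pass the test, beside a background of 5.4% higher and 26.5% called in either direction. The choice required a hypoxia-only peak and at least 1 FPKM in hypoxia, so it can favour genes with more RNA in hypoxia. CABP1, TMEM74B, CDA and APLN reached 1 FPKM in hypoxia only. The count of rises is therefore a description of chosen genes and no support for a link between peaks and RNA. P4HB codes for protein disulfide isomerase, a subunit of collagen prolyl hydroxylase, and its 3′ UTR peak had 2.26-fold over 1270 bases (chromosome 12, 1129325 to 1130594). P4HB RNA was 823, 707 and 1054 FPKM in hypoxia and 386, 465 and 520 in normoxia, without overlap (log2 fold change 0.90 ± 0.19 SE, limma adjusted p = 0.0144; not past the threshold without normoxia replicate 1 or 2 or hypoxia replicate 1). P4HB had no normoxia peak at all.

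SLC2A1, the glucose transporter GLUT1, had a hypoxia-only 5′ UTR peak of 3.32-fold over 179 bases close to its start (chromosome 6, 168535440 to 168535618), while its 3′ UTR peak of 4.86-fold overlapped one in normoxia. The authors' deposited table of differential peaks lists the same 179 bases as higher in hypoxia by 1.10 on the log2 scale (adjusted p = 1e-05). SLC2A1 RNA was 151, 148 and 213 FPKM in hypoxia and 22.7, 24.9 and 23.6 in normoxia, without overlap (log2 fold change 2.77 ± 0.18 SE, limma adjusted p = 0.00023).

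ANXA1, which codes for the anti-inflammatory annexin A1, had a 3′ UTR hypoxia-only peak of 9.53-fold over 210 bases, with RNA of 62.9, 78.1 and 28.5 FPKM in hypoxia and 62.8, 55.4 and 50.5 in normoxia (limma adjusted p = 0.864). The groups overlapped, so ANXA1 had a hypoxia-only region beside RNA with no call.

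PLOD1, a collagen lysyl hydroxylase, had a 5′ UTR hypoxia-only peak of 2.03-fold over 6793 bases and a 3′ UTR peak of 6.13-fold that overlapped normoxia. C4orf3, a small membrane protein gene, had a 3′ UTR hypoxia-only peak of 3.89-fold over 240 bases and rose from 9.20 ± 1.71 to 40.7 ± 20.4 FPKM (SD, n = 3; limma adjusted p = 0.0173). That call was lost without any 1 of the 3 normoxia libraries and without hypoxia replicate 1. CABP1 (a calcium sensor), TMEM74B (a transmembrane protein) and CDA (cytidine deaminase) had no normoxia peak and almost no RNA in normoxia. The normoxia libraries all list CABP1 at 0, and the hypoxia libraries at 7.17, 5.67 and 7.98 FPKM, with peaks of 1.99 and 6.58-fold. TMEM74B went from a highest normoxia value of 0.0902 to 8.34, 5.65 and 9.21 FPKM, with an exonic peak of 8.77-fold over 2886 bases.

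**Figure D5:**
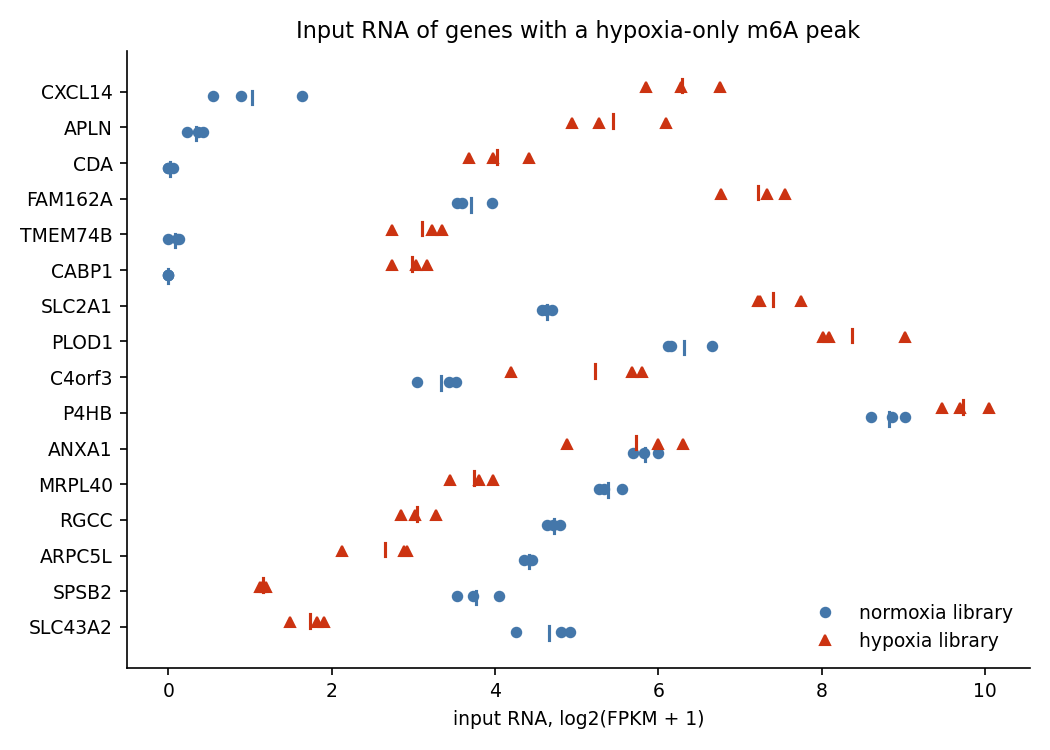
Input RNA as log2(FPKM + 1) (x axis) in each of 3 normoxia (circles) and 3 hypoxia libraries (triangles) for the 16 genes described by their hypoxia-only peak or by the largest change of RNA among genes with such a peak (y axis), with vertical ticks at the means. APLN, CDA, TMEM74B and CABP1 are at or near 0 in normoxia, the groups of ANXA1 overlap, and the 5 lowest genes are lower in each hypoxia library.

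Among genes with a hypoxia-only peak, 4 of the 5 with the largest rise of RNA are described here, CXCL14, APLN, CDA and FAM162A. CXCL14, a chemokine gene, was at 76.2, 56.4 and 107 FPKM in hypoxia and 2.11, 0.844 and 0.457 in normoxia (limma adjusted p = 0.00025, log2 fold change 5.27 ± 0.34 SE). It had a 3′ UTR peak shared with normoxia (4.89-fold) and a hypoxia-only 5′ UTR peak of 2.51-fold over 60 bases. APLN, the gene of the vasoactive peptide apelin, was at 37.8, 29.8 and 67.4 FPKM in hypoxia and at most 0.337 in normoxia, and had 3 hypoxia-only peaks in its 3′ UTR of 3.63, 3.99 and 4.99-fold and none in normoxia. CDA went from at most 0.0417 FPKM to 14.8, 11.8 and 20.3, with a 3′ UTR peak of 4.12-fold, a repeated enrichment value.

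FAM162A, a mitochondrial protein gene induced by HIF, was at 187, 159 and 108 FPKM in hypoxia and 14.6, 11.1 and 10.6 in normoxia. Its 3 peaks included a hypoxia-only one of 60 bases in the 5′ UTR with an adjusted p of 0.13. For the genes near 0 in normoxia, less RNA and less methylation there cannot be told apart from the lists.

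The 5 with the largest fall were SLC43A2, SPSB2, ARPC5L, RGCC and MRPL40. SLC43A2, an amino acid transporter gene, was at 2.53, 1.81 and 2.75 FPKM in hypoxia and 26.9, 29.1 and 18.1 in normoxia (limma adjusted p = 0.000449, log2 fold change -2.92 ± 0.22 SE). Its hypoxia-only peak covered 61 bases at a repeated enrichment value with an adjusted p of 0.0603, beside 3 peaks that overlapped normoxia. SPSB2, a ubiquitin ligase adaptor, was at 1.18, 1.29 and 1.22 FPKM against 12.3, 15.5 and 10.6, with a 5′ UTR hypoxia-only peak of 5.84-fold. ARPC5L (actin nucleation) and MRPL40 (mitochondrial ribosome) had hypoxia-only peaks in the 5′ UTR of 5.15 and 3.51-fold, that of ARPC5L at a repeated enrichment value. RGCC, a cell cycle regulator, had a single hypoxia peak of 3.87-fold in its 3′ UTR that missed the normoxia peak of the same gene, at 8.65, 7.08 and 6.17 FPKM against 23.9, 26.8 and 25.2.

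NMNAT3, which codes for a mitochondrial enzyme of NAD+ synthesis and is named beside FTO in the title of the study, had 2 hypoxia-only peaks in its 3′ UTR and none in normoxia. They covered 836 bases at 6.13-fold and 210 bases at 1.80-fold (chromosome 13, 80431099 to 80431934 and 80432053 to 80432262, minus strand). RNA of NMNAT3 was 5.97, 4.24 and 5.87 FPKM in hypoxia and 0.0936, 0.162 and 0.108 in normoxia, without overlap (limma adjusted p = 0.00025, log2 fold change 2.49 ± 0.17 SE). The authors' deposited table of differential peaks lists 80431397 to 80431934 as higher in hypoxia by 1.30 on the log2 scale, with a p of 0.01 and an adjusted p of 0.125. In the NAD+ list 6 of 8 genes of at least 1 FPKM had a hypoxia peak, beside 79.9% of all genes of that level. Of 7 genes of this list tested, 3 rose and 2 fell at a limma adjusted p under 0.05, with a median log2 fold change of 0.165. With a median-ratio factor per library 3 rose and 0 fell, beside 6.64% higher and 8.07% lower over all genes tested. NAPRT (nicotinate salvage) and NADSYN1 (NAD+ synthetase) had 1 hypoxia-only peak each and none in normoxia, of 2.06 and 2.43-fold, and rose in RNA from 8.92 to 31.3 and from 3.92 to 12.0 FPKM in the means.

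The authors' deposited table of differential peaks holds 519 regions higher and 687 lower in hypoxia, 224 and 202 of them at an adjusted p under 0.05. Of the hypoxia peaks 542 (2.22%) overlapped a region listed as higher and 704 (2.88%) one listed as lower. Of the 3912 hypoxia-only peaks, 95 (2.43%) overlapped a region listed as higher and 1 a region listed as lower. At an adjusted p under 0.05 the former were 34, a share of 0.869% beside 0.933% of all hypoxia peaks. The share of hypoxia-only peaks with a listed rise was near that of the whole list. With a listed fall it was far smaller, 0.0256% against 2.88%. Hypoxia-only peaks were picked for having no normoxia peak, so this smaller share is no separate result.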

How the data were processed

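Primary granulosa cells gave 3 input and 3 IP libraries per condition, 12 in all. The authors' deposited peak lists, 1 per condition, hold per peak a log2 enrichment of IP over input (printed here as a fold), a p-value and an adjusted p-value; all listed hypoxia peaks had a p under 0.05. The deposited expression table holds FPKM of the 6 input libraries per the file headers, and a deposited comparison gives q-values per gene. The submitters' processing notes name HISAT2 2.0.4 and the genome build Sscrofa11.1, HOMER 4.10, edgeR 4.1, StringTie 2.1.2, FastQC and fastp 0.19.4. No source used here names the peak caller or says whether replicates were pooled.

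Peak starts, deposited in 0-based form, are printed in 1-based form: 3085 hypoxia peaks begin 1 base before their gene as deposited, and 0 at it. Overlap meant at least 1 shared base on the same strand (bedtools 2.31.1). Input RNA was compared with limma 3.58.1 (R 4.3.3; trend, robust) on log2(FPKM + 1), the conditions without a block, for genes that reached 1 FPKM in 3 libraries or more, with Benjamini-Hochberg adjustment over 10196 genes, after a check on simulated data. This log2 scale understates changes of low genes. Symbols came from the deposited tables for 13660 genes and from a table of gene names for 120. Repeated enrichment values are the 10 most frequent of the list, held by 5412 peaks (22.1%).

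Genes named are the 8 with the most peaks, the 8 most abundant with and without a peak, the 3 highest peaks per class, the 10 hypoxia-only peaks of lowest adjusted p, the 5 largest rises and falls beside such a peak, the 3 longest and shortest spans, FTO and NMNAT3, and up to 4 members of each list with and without a peak. Some genes that this rule names are not reported here. Members and lists were chosen with earlier results of these data known. Alternatives were peak thresholds, overlap rules, filters, pseudocount, scaling, a replicate block and leaving out each library.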

Additional observations from a re-analysis of the deposited data

How the results depend on the processing

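Peaks at an adjusted p under 0.05 were 37.0% exonic and 15.2% in 5′ UTRs, with a median span of 477 bases. With at least 4-fold enrichment as well, 12673 peaks remained, 46.0% in 3′ UTRs and 33.7% exonic, with a median span of 584 bases and a median of 1 peak per gene. Without peaks at repeated values 38.4% were exonic and 14.2% in 5′ UTRs. With 1 peak per gene the shares were 50.4% in 3′ UTRs, 30.4% exonic and 13.7% in 5′ UTRs. The share of genes of at least 1 FPKM with a peak was 77.8% at an adjusted p under 0.05, 75.7% without repeated values and 59.9% with no minimum level. The median FPKM of genes with a peak was 3.56 and 3.85 under the first pair of these settings, and 2.81 to 3.42 with a hypoxia library left out.

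Hypoxia-only peaks numbered 2190 (in 1847 genes) at an adjusted p under 0.05, 2109 (1800 genes) without repeated values, 6322 (4668 genes) where 50% of the hypoxia span had to be shared and 13457 (7375 genes) where 50% of each span had to be. An alternative chosen after seeing the data, genes of at least 1 FPKM in both conditions, gave 1956. Genes with peaks only in hypoxia were 482 and 393 under the first pair of settings. The lists hold no exon blocks, so block length and block overlap were not run.

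For input RNA of genes with a hypoxia-only peak, 297 were higher with no filter on low values, 87 higher and 218 lower with a minimum of 5 FPKM, and 120 lower (823 of all genes) with a median-ratio factor. With hypoxia-only peaks at an adjusted p under 0.05, 209 were lower, and for genes with peaks only in hypoxia 58 were higher and 36 lower. The authors' deposited comparison, added after seeing the data, gave 424 higher and 184 lower at a q under 0.05. With 1 library left out, 51 to 208 were higher and 92 to 480 lower, and over all genes 235 to 994 and 684 to 3168. Each of the 6 libraries moved at least 1 of these counts by over 1.5 times. ANXA1 reversed to 0.20 (log2) with a median-ratio factor and ranged from -0.39 to 0.32 with 1 library left out, the latter without hypoxia replicate 3. The cause of these shifts was not tested.

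With the replicate number as a block, 695 genes were higher and 2768 lower, 185 and 415 among genes with a hypoxia-only peak. Same-numbered libraries deviated together with correlations of 0.586, 0.040 and 0.697 for numbers 1, 2 and 3, and hypoxia replicate 2 correlated best with normoxia replicate 1 (0.641), so the numbers were not read as pairing. Depth is unknown for every library, and the peak lists give no error over replicates.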
